A study of Mus musculus with 12 samples.

Results

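The genes described here sense foreign or misplaced nucleic acids and bacterial products, or handle those molecules in endosomes and lysosomes. They are 10 genes taken as a set: the receptors Tlr9, Tlr7, Tlr4 and Cd180, the receptor partners Ly96 and Ly86, the chaperone Unc93b1, the adaptor Myd88, and the nucleases Pld3 and Pld4. The set was chosen because Tlr9 and Pld4 read higher after CHIR99021, so every value of these 10 genes in treated against untreated BCR-negative cells is given below as a description and not as a test. Genes outside the set were tested in that comparison, in lists that were also chosen with earlier results of these data known. Each gene has 1 probe set with a single gene symbol in the platform annotation, and these 10 stand among 35556 probe sets, of which 12961 genes could be tested. 8 of the 10 passed the filter on dim probe sets. Tlr7 and Tlr4 did not, and they have values but no test.

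The samples are primary cultures of B lymphoma cells from l-MYC;B1-8f mice (strain C57BL/6J x BALB/c), all carrying the MYC transgene and the floxed B1-8 heavy chain gene, and each of 3 tumours (2567, 2646 and 2676) gave 1 array in each of 4 groups. CHIR99021-treated BCR-negative cells had lost the B cell receptor (BCR) after transduction with TAT-Cre, a cell-permeable recombinase, and were sorted from mixed BCR+/BCR- cultures grown for 4 days with CHIR99021, an inhibitor of the kinase GSK3. BCR-independent cells were BCR-negative clones from long culture (clone 8, clone 7 and clone 1, a single clone per tumour), sorted after 4 days without the inhibitor from mixtures with BCR-positive cells of their tumour. Untreated BCR-negative cells and untreated BCR-positive cells were sorted after 4 days from mixed cultures without the inhibitor. All values are log2 signals from a whole-transcript array, so a difference of 1 is a doubling, and precision is limited by having 3 arrays in a group.

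The receptor that the sort was made on left its trace in the arrays: the probe set of the B1-8 variable gene segment read 4.93 to 6.26 in treated BCR-negative, 3.72 to 4.21 in BCR-independent, 5.85 to 6.97 in untreated BCR-negative and 9.45 to 9.97 in BCR-positive cells. Of 6 B cell markers with a probe set, Cd79a, Cd79b, Pax5, Ebf1 and Cd22 exceeded the array median on all 12 arrays, while Ms4a1 stayed below it on all 12 (2.55 to 3.19). Both BCR-positive and BCR-negative untreated arrays of tumours 2646 and 2676 carry a (2) in their titles that the labels do not explain. Only tumour 2567 compares treated or BCR-independent cells with untreated BCR-negative or BCR-positive cells among arrays without that mark. Its values are named below.

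Toll-like receptors recognise microbial molecules. TLR9 binds unmethylated CpG DNA and TLR7 binds single-stranded RNA, both inside endosomes, where UNC93B1 delivers them from the endoplasmic reticulum, and both signal through the adaptor MYD88 to NF-kB and interferon regulatory factors. PLD3 and PLD4 are endolysosomal exonucleases that trim single-stranded nucleic acid from its 5′ end, and in mice their loss leads to excess TLR9 activation. At the cell surface TLR4 senses lipopolysaccharide with its partner MD-2, the product of Ly96, while CD180, a related receptor that lacks the usual intracellular signalling domain, pairs with MD-1, the product of Ly86, and is prominent on B cells.

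Of the 10 genes, 6 had a promoter in the RefSeq table of build GRCm38.p6, and the 250 bases before the annotated start are printed for Tlr9, Pld4 and Myd88, the genes whose treated and untreated BCR-negative arrays did not overlap. The windows are chr9:106222348-106222597 (plus strand) for Tlr9, chr12:112760405-112760654 (plus strand) for Pld4 and chr9:119340019-119340268 (minus strand) for Myd88, each 5′ to 3′ along its gene. Capitals mark matches, on either strand, to 10 motifs.
Tlr9: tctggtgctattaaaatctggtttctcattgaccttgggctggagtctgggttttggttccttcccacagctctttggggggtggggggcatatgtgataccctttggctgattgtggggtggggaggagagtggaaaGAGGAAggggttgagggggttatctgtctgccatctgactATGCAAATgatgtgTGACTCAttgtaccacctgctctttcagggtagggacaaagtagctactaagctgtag
Pld4: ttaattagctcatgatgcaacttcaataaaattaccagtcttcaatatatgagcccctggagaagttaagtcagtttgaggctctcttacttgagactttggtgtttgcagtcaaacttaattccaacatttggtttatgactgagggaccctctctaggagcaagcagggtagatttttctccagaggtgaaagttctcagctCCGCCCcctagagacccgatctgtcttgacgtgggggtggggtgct
Myd88: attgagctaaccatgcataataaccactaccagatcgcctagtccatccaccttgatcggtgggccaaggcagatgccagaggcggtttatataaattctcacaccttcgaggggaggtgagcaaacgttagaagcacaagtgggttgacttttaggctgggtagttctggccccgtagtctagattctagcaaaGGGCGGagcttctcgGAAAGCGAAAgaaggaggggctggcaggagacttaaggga

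The motifs searched were ATGCAAAT (octamer), GAGGAA (PU.1 core), CTTTGAA and CTTTGAT (TCF and LEF), CACGTG (E-box), the NF-kB motif (GGG and CC with 5 free bases between), the interferon response element (GAAA repeated after 2 free bases), TGANTCA (AP-1), GTAAACA (FOXO) and CCGCCC (GC box), and no marked matches overlapped in these 3 windows. The Tlr9 window held an octamer, the letters bound by OCT factors in B cells, starting at position -72 from the gene start. An octamer occurred in 1.6% of the 32851 promoter windows of the same length. It also held the PU.1 core at -112, found in 23.3% of windows, and an AP-1 match at -58, found in 6.75%. The Pld4 window held only a GC box at -46, which 32.7% of windows had. The Myd88 window held a GC box at -55 and an interferon response element at -40, and 2.98% of windows held that element. Neither TCF and LEF form, present in 4.46% and 3.21% of windows, matched in these 3 windows, nor did the FOXO letters (3.17%), the E-box (6.02%) or the NF-kB letters (45.8%). These matches describe letters and were not tested as binding sites.

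Tlr9 was highest in treated BCR-negative cells, followed by BCR-independent cells, BCR-positive cells and untreated BCR-negative cells. Across tumours 2567, 2646 and 2676, always given in that order below, Tlr9 read 5.93, 5.94 and 5.78 in treated cells, 5.40, 5.54 and 5.99 in BCR-independent cells, 4.57, 4.68 and 4.99 in untreated BCR-negative cells and 5.34, 5.29 and 5.08 in BCR-positive cells. Every treated array lay above every untreated BCR-negative and BCR-positive array, and treated and BCR-independent arrays overlapped. Tlr9 averaged 5.88 ± 0.09 in treated and 4.75 ± 0.21 in untreated BCR-negative cells (SD, n = 3 each), a difference of 1.14 or 2.20-fold, with 1.36, 1.26 and 0.79 in the 3 tumours. The tumour without the title mark, 2567, had the largest of these differences.

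Pld4 followed the same order of group means with a wider range. It read 7.65, 7.86 and 6.55 in treated cells, 6.45, 6.39 and 7.23 in BCR-independent cells, 4.10, 5.66 and 5.23 in untreated BCR-negative cells and 4.84, 6.65 and 5.56 in BCR-positive cells. The treated arrays all lay above the untreated BCR-negative ones, but the BCR-positive array of tumour 2646, at 6.65, stood above the treated array of tumour 2676, at 6.55. The means were 7.35 ± 0.70 in treated and 5.0 ± 0.81 in untreated BCR-negative cells (SD, n = 3 each). Their difference was 2.35, or 5.11-fold, made up of 3.55, 2.20 and 1.32 in the 3 tumours.

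Myd88, which carries the signal of both endosomal receptors, had a different order, with BCR-positive above BCR-independent cells. It read 6.59, 6.87 and 5.81 in treated cells, 6.08, 5.98 and 5.24 in BCR-independent cells, 5.75, 5.81 and 4.83 in untreated BCR-negative cells and 6.00, 6.13 and 5.97 in BCR-positive cells. Tumour 2676 was the lowest in all 4 groups, and its treated array sat level with the highest untreated BCR-negative array to the second decimal. Treated minus untreated differences were alike in size, at 0.84, 1.06 and 0.98, with a mean of 0.96.

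In this comparison 3 of the 10 genes had treated arrays that all exceeded the untreated ones, Myd88 by a margin that vanishes at the printed decimals, where 5.9% of the 12961 genes did so, and the same 3 (Tlr9, Pld4 and Myd88) stood past the adjusted threshold of 0.05 in the limma fit, where 1.06% of genes did so in the upward direction. Since the set was chosen on this contrast, nothing is read from either count. Markers of plasmacytoid dendritic cells, a cell type known for high TLR7, TLR9 and PLD4, summed over 5 probe sets of 7 listed genes to 21.4 to 22.8 in treated and 21.1 to 22.1 in untreated BCR-negative cells. Of these, Ccr9 and Pacsin1 stayed below the array median on all 12 arrays, and Siglech, at 3.05 to 3.99, exceeded it on 4, with a treated minus untreated difference of 0.26. Cox6a2, at 4.65 to 5.36, and Tcf4, at 6.77 to 7.82, exceeded it on all 12, with differences of 0.12 and -0.09. The 7 macrophage or monocyte probe sets summed to 24.2 to 24.9 in treated and 23.4 to 25.5 in untreated cells, with Adgre1, Lyz2 and Fcgr1 below the median on all 12 arrays. Cd68 and Itgam lay above it on all 12, C1qa on 10 and Csf1r on 2, and their treated minus untreated differences were 0.30, -0.52, 0.02 and 0.40. Among B cell markers, Ebf1 differed by -1.21, Pax5 by -0.46, Cd79b by -0.42 and Cd22 by -0.37 in treated minus untreated cells. Cd79a differed by 0.04 and Ms4a1 by 0.06. Of the markers listed for plasma cells, Irf4 differed by -1.12, Sdc1 by -0.12, Prdm1 by -0.08, Jchain by -0.02 and Xbp1 by 0.08. The part of these genes in the differences above was not tested. Fewer cells of a type and less RNA per cell cannot be told apart in these sorted bulk samples.

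**Figure D1:**
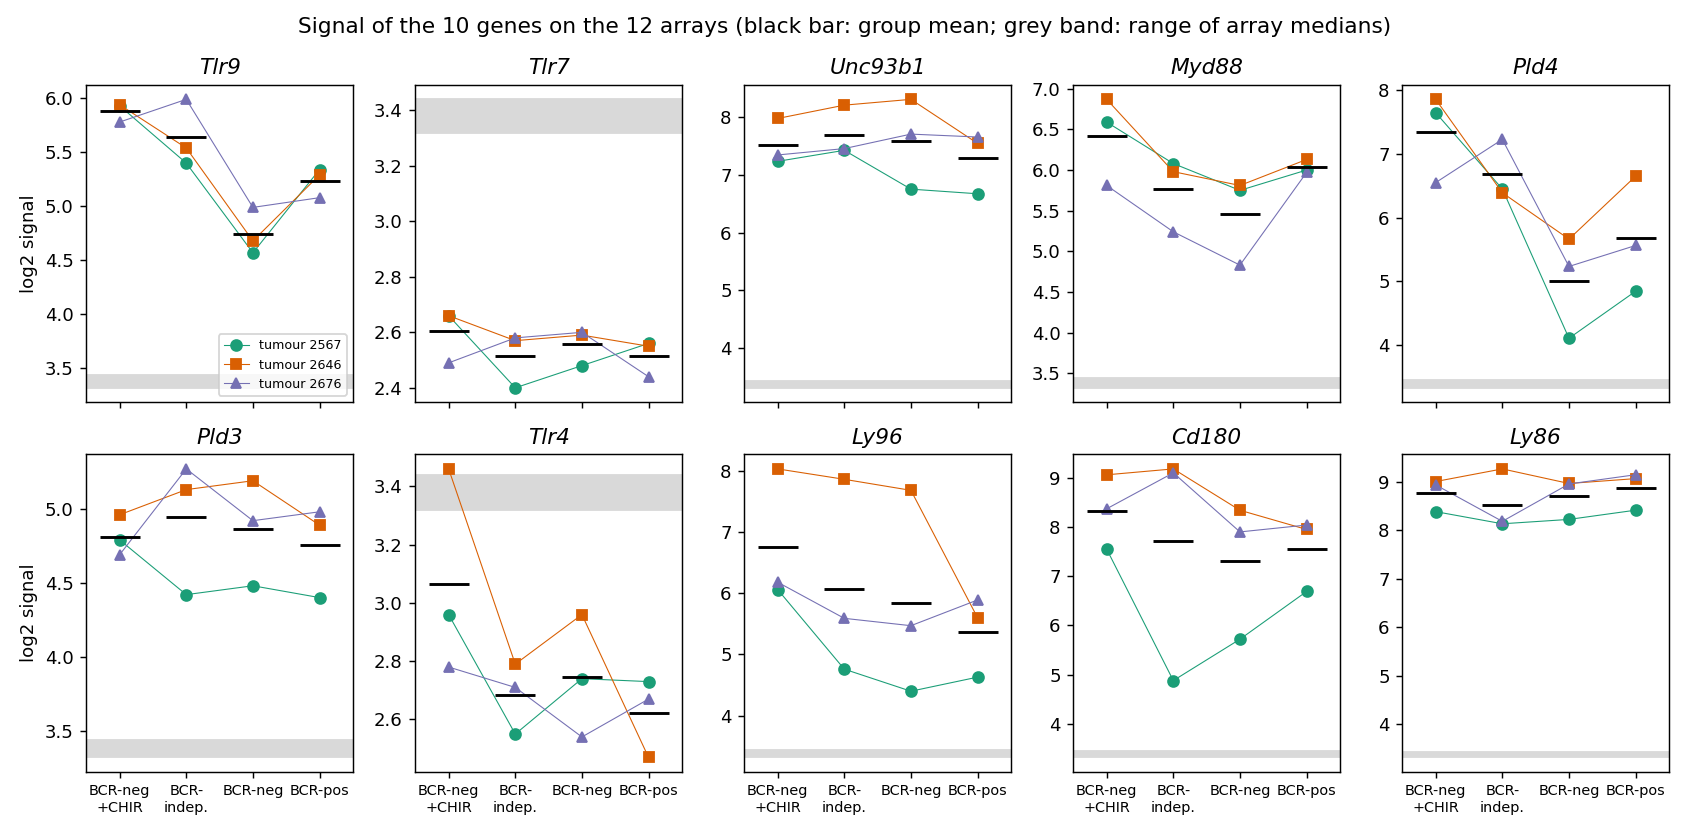
Log2 signal (vertical axes, separate scale per gene) of the 10 genes in treated BCR-negative (BCR-neg +CHIR), BCR-independent, untreated BCR-negative and BCR-positive cells, with 1 point per array joined by tumour, black bars for group means and a grey band for the range of array medians (3.32 to 3.44). Tlr9, Pld4 and Myd88 are high at the left and lowest in untreated BCR-negative cells, whereas Tlr7 lies below the band on every array.

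The second endosomal receptor, Tlr7, read 2.40 to 2.66 over the 12 arrays and never exceeded its array's 40th percentile. Its group means were 2.60 (treated), 2.52 (BCR-independent), 2.56 (untreated BCR-negative) and 2.52 (BCR-positive), and values this dim have no order. Unc93b1, the chaperone that TLR9 and TLR7 share, was bright in every group. It read 7.23, 7.97 and 7.34 in treated cells, 7.42, 8.20 and 7.45 in BCR-independent cells, 6.75, 8.30 and 7.70 in untreated BCR-negative cells and 6.67, 7.54 and 7.65 in BCR-positive cells. All pairs of groups overlapped, and treated minus untreated differences had both signs (0.48, -0.34 and -0.36).

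Pld3, the paralogue of Pld4, did not show the Pld4 pattern. It read 4.79, 4.96 and 4.69 in treated cells, 4.42, 5.13 and 5.27 in BCR-independent cells, 4.48, 5.19 and 4.92 in untreated BCR-negative cells and 4.40, 4.89 and 4.98 in BCR-positive cells. Groups overlapped in all 6 comparisons, and the treated minus untreated mean was -0.052, against 2.35 for Pld4.

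Among the surface receptors, Tlr4 read 2.47 to 3.46 and exceeded the 40th percentile on 1 of 12 arrays, the treated array of tumour 2646. At this dim level its treated minus untreated BCR-negative differences were 0.22, 0.49 and 0.24, in groups that overlapped. Against BCR-positive cells they were 0.23, 0.99 and 0.11, without overlap by 0.05, as for 6.99% of genes tested in that direction. Neither was tested. Ly96, the partner gene of Tlr4, was well above the array medians on all 12. Ly96 read 6.06, 8.03 and 6.18 in treated cells, 4.76, 7.86 and 5.59 in BCR-independent cells, 4.40, 7.68 and 5.47 in untreated BCR-negative cells and 4.63, 5.60 and 5.89 in BCR-positive cells. Tumour 2646 stood above the others in every group but BCR-positive, where it read 5.60 and tumour 2676 read 5.89. The treated cells had the highest Ly96 signal of their tumour in each of the 3 tumours, by 1.66, 0.36 and 0.72 over untreated BCR-negative cells.

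Cd180 read 7.55, 9.06 and 8.37 in treated cells, 4.88, 9.18 and 9.10 in BCR-independent cells, 5.72, 8.34 and 7.90 in untreated BCR-negative cells and 6.69, 7.95 and 8.04 in BCR-positive cells. The clone of tumour 2567 stood apart from the other BCR-independent clones by over 4 log2 units, and without that tumour the BCR-independent minus BCR-positive difference was 1.14, against 0.16 with it. Ly86, the CD180 partner, overlapped between all groups, at 8.38, 9.0 and 8.93 in treated cells, 8.13, 9.26 and 8.18 in BCR-independent cells, 8.22, 8.96 and 8.95 in untreated BCR-negative cells and 8.41, 9.06 and 9.14 in BCR-positive cells. The clone of tumour 2676 was the lowest array of its tumour, at 8.18, while its other 3 arrays read 8.93 to 9.14. The treated minus untreated mean was 0.062 for Ly86 and 1.01 for Cd180, and that of Cd180 was 0.60 without tumour 2567 and 0.43 with a term for the title mark.

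The division of each gene's spread over the 12 arrays separated Tlr9 and Pld4 from most of the set. Differences between groups made up 87.1% of the sum of squares of Tlr9, 69.0% of that of Pld4 and 47.6% of that of Myd88, beside a median of 20.7% over all genes tested. Differences between tumours made up 1.8% for Tlr9 and 11% for Pld4. For Cd180, Unc93b1, Ly86, Ly96 and Pld3 the share between tumours was 70.3%, 70.0%, 66.3%, 65.6% and 65.2%, beside an all-gene median of 39.8%. The group share of Tlr9 and Pld4 includes the contrast on which they were chosen.

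**Figure D2:**
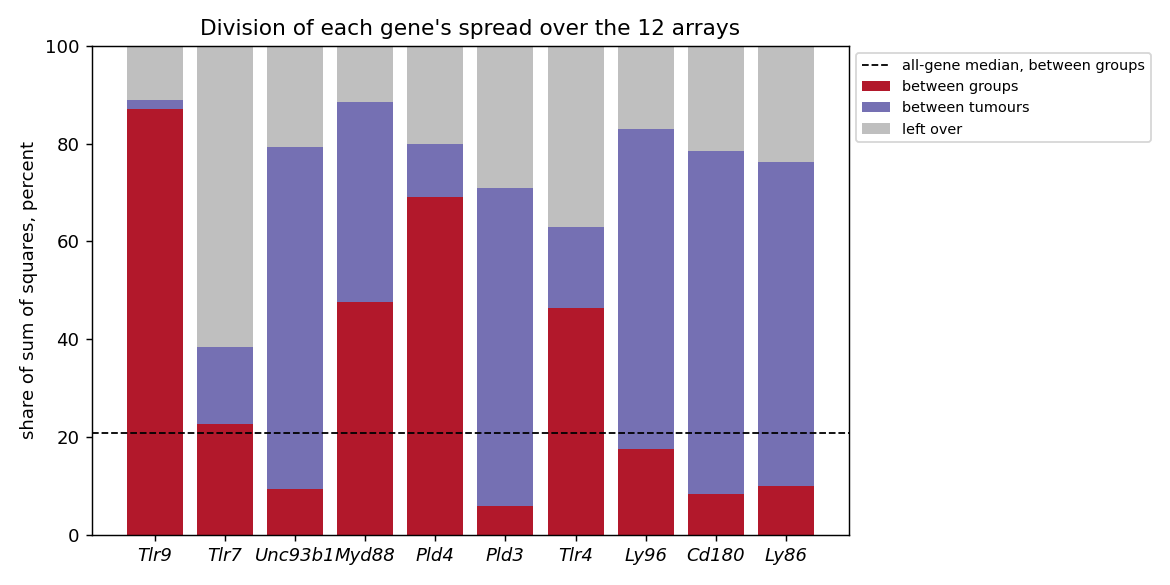
Share of the sum of squares over the 12 arrays (vertical axis, percent) that lies between the 4 groups, between the 3 tumours, or in neither, for each of the 10 genes, with a dashed line at the all-gene median between groups (20.7%). Tlr9 and Pld4 are mostly red (87.1% and 69.0% between groups), while Cd180, Unc93b1, Ly86, Ly96 and Pld3 are mostly purple (65.2% to 70.3% between tumours).

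BCR-independent against BCR-positive cells is the comparison that shares no array with the one used to choose the genes, and it asks whether clones that persist without the receptor differ from cells that keep it. Tlr9 was higher in BCR-independent cells of 3 of 3 tumours, by 0.06, 0.25 and 0.90, and the lowest BCR-independent array exceeded the highest BCR-positive array by 0.06. Its mean difference of 0.40 (SE 0.16, 95% interval 0.049 to 0.76) did not pass in limma's test, with adjusted p = 0.461 over the 12961 genes. Without tumour 2676 the difference was 0.16. Tumour 2567, the only one with no title mark on either array here, had a Tlr9 difference of 0.06. Pld4 was higher in tumours 2567 and 2676, by 1.61 and 1.67, and lower in tumour 2646, at -0.26. The mean of 1.00 (SE 0.45, 95% interval -0.015 to 2.02, limma adjusted p = 0.52) did not pass either, and it was 1.64 without tumour 2646, 1.90 with a term for the title mark, and 0.67 without tumour 2676. Of the 8 genes tested, 0 passed here in limma and 1, Tlr9, had an unadjusted p under 0.05, where 0.0849% of all genes passed and 9.61% had such a p. For the other 6 the adjusted p lay between 0.589, for Unc93b1, and 0.944, for Cd180. Groups did not overlap for 1 gene of 10, Tlr9, beside 4.79% of genes tested that were higher without overlap.

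**Figure D3:**
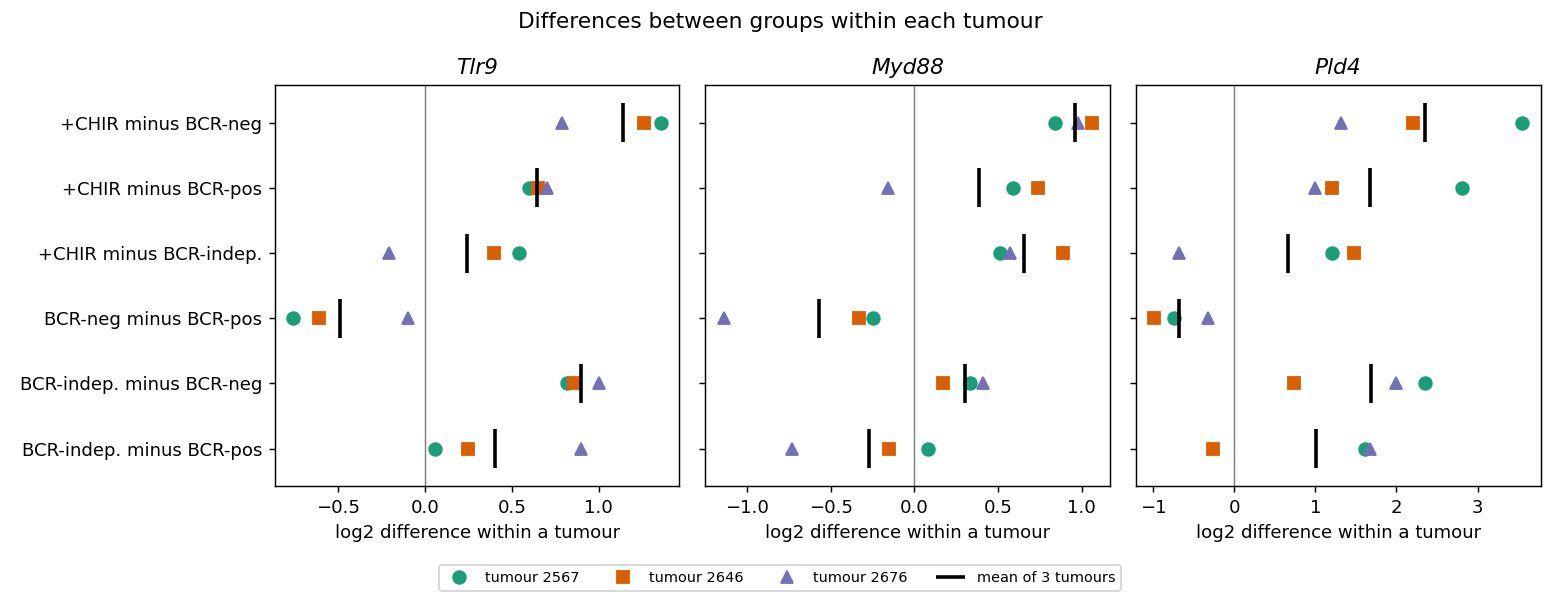
Log2 difference between groups within each tumour (horizontal axes, separate scale per gene) for Tlr9, Myd88 and Pld4 in the 6 comparisons, with 1 point per tumour and a black bar for the mean of the 3 tumours. In the top row all 9 points lie right of 0 (0.79 to 3.55), and in the bottom row the points of Tlr9 lie right of 0 (0.06 to 0.90) while those of Pld4 and Myd88 have both signs.

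The remaining comparisons share treated or untreated BCR-negative arrays with the contrast that chose the genes, so Tlr9 and Pld4 are described in them without a test. In treated against BCR-positive cells, Tlr9 differed by 0.60, 0.65 and 0.70 and Pld4 by 2.81, 1.21 and 0.99 in the 3 tumours. In BCR-negative against BCR-positive cells, which asks what loss of the receptor changes, both were lower in 3 of 3 tumours, with differences of -0.76, -0.61 and -0.10 for Tlr9 and -0.74, -0.99 and -0.33 for Pld4. In BCR-independent against BCR-negative cells both were higher in 3 of 3 tumours, Tlr9 by 0.82, 0.86 and 1.00 and Pld4 by 2.35, 0.73 and 2.00. Neither gene's groups overlapped there, as for 2.99% of all genes in that direction. Between treated and BCR-independent cells neither had 1 direction, with Tlr9 at 0.54, 0.40 and -0.21 and Pld4 at 1.20, 1.47 and -0.68.

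The 6 other genes tested were read in these comparisons from the limma fit, and 0 passed in any. In treated against BCR-positive cells, where 0.802% of genes passed and 15.6% had an unadjusted p under 0.05, Ly96 differed by 1.39 (SE 0.46, adjusted p = 0.184), with 1.43, 2.43 and 0.29 in the 3 tumours and 0.86 without tumour 2646. Ly96 was the 1 gene of the 6 with an unadjusted p under 0.05 there. Its lowest treated array exceeded the highest BCR-positive array by 0.17, a separation that 6.99% of genes had in that direction. Myd88 differed by 0.39 (SE 0.17, adjusted p = 0.321), at 0.59 and 0.74 in tumours 2567 and 2646 and -0.16 in tumour 2676, and by 0.66 without tumour 2676. In treated against BCR-independent cells, where 0.162% of genes passed, Myd88 was higher in 3 of 3 tumours, by 0.51, 0.89 and 0.57, with a mean of 0.66 (SE 0.17, adjusted p = 0.188 in limma). It was the 1 gene of the 6 with an unadjusted p under 0.05, as 12.3% of all genes had.

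At BCR loss, where 0.00772% of genes passed and 3.19% had an unadjusted p under 0.05, Myd88 averaged 5.46 ± 0.55 in BCR-negative and 6.04 ± 0.09 in BCR-positive cells (SD, n = 3 each). It was lower in 3 of 3 tumours, with differences of -0.25, -0.33 and -1.14, and its groups did not overlap, as for 2.01% of genes in that direction. The mean of -0.57 (SE 0.17) had an adjusted p of 0.999 in limma, and it was -0.29 without tumour 2676. Myd88 was the 1 gene of the 6 with an unadjusted p under 0.05. In BCR-independent against BCR-negative cells, where 0.00772% of genes passed and 5.99% had an unadjusted p under 0.05, 0 of the 6 had one. Myd88 was the nearest, with 0.33, 0.17 and 0.41 in the 3 tumours and a mean of 0.30 (SE 0.17, limma adjusted p = 0.827).

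Tlr9 and Pld4 followed each other across the arrays. After each tumour's mean was subtracted, their signals had a Pearson correlation of 0.905 over 12 arrays, a description of points that share tumours and groups. The treated and untreated BCR-negative arrays on which both genes were chosen lie at its ends, so the correlation and the ranks restate that choice in part. Pld4 ranked 7th of 12367 named genes by likeness to Tlr9, and Tlr9 ranked 22nd by likeness to Pld4. The genes most like Tlr9 were Tmed10, which sorts cargo in the early secretory pathway (0.923), Tsr2 (0.922), the selenophosphate synthetase Sephs2 (0.918), Rims4 (0.915) and the mitochondrial protease Clpp (0.911). Those most like Pld4 were Tmed10 (0.960), the lipase inhibitor Angptl4 (0.960), Synj2, a phosphoinositide phosphatase (0.954), Rrbp1, a ribosome-binding protein of the endoplasmic reticulum (0.948) and the adhesion molecule Icam1 (0.947). Tmed10 was the 1 gene in both groups of 5, and it differed by 0.49 between treated and untreated BCR-negative cells. Within the set, Myd88 correlated at 0.59 with Tlr9 and 0.62 with Pld4, Unc93b1 at -0.02 and 0.21, and Ly86 at -0.25 and -0.32.

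**Figure D4:**
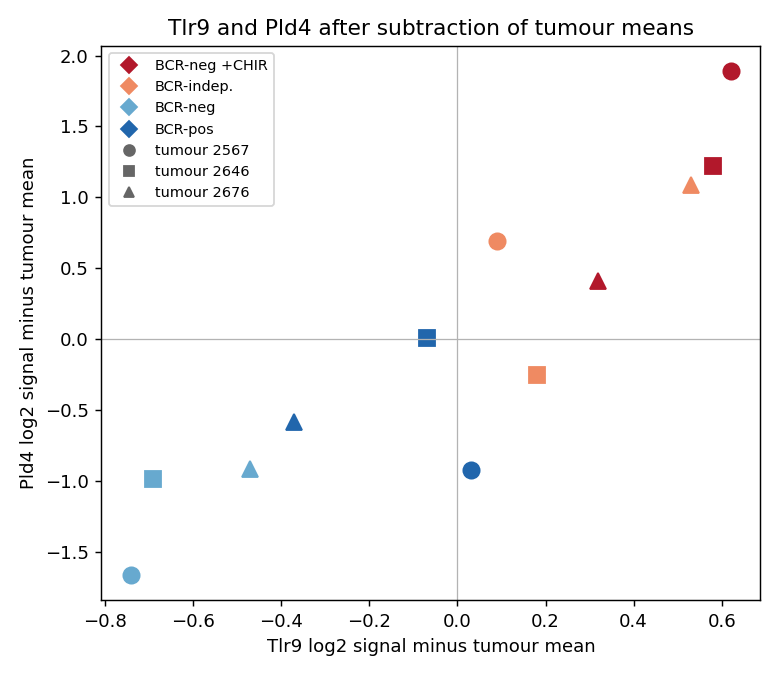
Tlr9 (horizontal axis) against Pld4 (vertical axis), each as log2 signal minus its tumour's mean, with 1 point per array, colour for the group and shape for the tumour. Untreated BCR-negative arrays sit at the lower left (Tlr9 -0.74 to -0.47) and treated arrays at the upper right (0.32 to 0.62), with the BCR-independent array of tumour 2676 among them.

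The rest of the pathway was described through 7 lists, chosen with earlier results of these data known. Of 11 further Toll-like receptors and lipopolysaccharide carriers 4 were bright enough to test, and 0 passed in limma in any of the 6 comparisons. In treated against untreated BCR-negative cells 1 of these 4 had an unadjusted p under 0.05, beside 16.6% of all genes. So did 3 of 11 genes of the trafficking list, 1 of 8 of the nuclease and phospholipase D list, 3 of 20 signalling genes and 3 of 9 cytosolic sensors. Tlr2, a sensor of bacterial lipopeptides, had the largest treated minus untreated difference of the 4, at 0.37 (limma adjusted p = 0.17). For chaperones and trafficking factors, 0 of 11 passed in any comparison, and the treated minus untreated median was 0.021 beside 0.026 over all genes. Hsp90b1 and Cnpy3, which fold Toll-like receptors, differed by 0.02 and 0.10, and Slc15a4, an endolysosomal transporter needed for TLR7 and TLR9 signalling in mice, by 0.00. In this list, 3 genes had an unadjusted p under 0.05 in treated against untreated cells. The kinase gene Syk, listed here among the trafficking genes, differed by -0.68 (limma adjusted p = 0.055). The SNARE gene Vamp3 differed by 0.48 (limma adjusted p = 0.213) and Ap3s1, a subunit of the AP-3 adaptor complex, by -0.42 (limma adjusted p = 0.212). In 5 of the alternatives 1 gene of this list passed in this comparison.

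Endosomal proteases, several of which process TLR9 in its compartment, had 6 tested members of 8. In treated against untreated BCR-negative cells 1 passed upward and 0 downward, with a median of 0.36 beside 0.026 over all genes, and the share of all genes that passed was 1.91%. Ctsz (cathepsin Z) read 8.95, 9.25 and 8.13 in treated, 8.66, 8.84 and 7.79 in BCR-independent, 7.79, 8.59 and 7.56 in untreated BCR-negative and 8.15, 8.29 and 7.59 in BCR-positive cells. It rose in treated cells by 0.80 over untreated BCR-negative cells (SE 0.14, limma adjusted p = 0.0347) and by 0.77 over BCR-positive cells (SE 0.14, limma adjusted p = 0.0483), in 3 of 3 tumours each. Both calls were lost without any 1 of the tumours, without the tumour block, with only the 2 groups compared and with a term for the title mark. The second call was also lost with no filter. Of the 6, 3 had an unadjusted p under 0.05 in treated against untreated cells, beside 16.6% of all genes. Ifi30, a lysosomal thiol reductase, differed by 0.83 and Ctss (cathepsin S) by 0.39 between treated and untreated cells, neither past the threshold. In BCR-independent against BCR-positive cells 0 of the 6 passed in limma, and the median was 0.30 beside 0.022. There, Lgmn (asparagine endopeptidase) differed by 0.70, Ctss by 0.68 and Ctsh by -0.97, with limma adjusted p of 0.254, 0.291 and 0.442, and 4 of the 6 had an unadjusted p under 0.05, beside 9.61% of all genes.

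The list of nucleases and phospholipase D family genes, without Pld3 and Pld4, gave 8 tested genes of 14 and 0 that passed in any comparison. Pld2 and Pld6, of the phospholipase D family, differed by 0.12 and 0.07 in treated against untreated cells, and Trex1, a cytosolic DNA exonuclease, by 0.31. Of 25 signalling genes 20 were tested and 0 passed in any comparison, with a treated minus untreated median of 0.017. Among them Traf6, the ubiquitin ligase downstream of MYD88, differed by -0.35, Btk by -0.42 and Tab1 by 0.30. These were the 3 with an unadjusted p under 0.05, and their limma adjusted p was 0.084, 0.175 and 0.161. Bank1 had the largest difference, at 0.76 (limma adjusted p = 0.508). The kinase gene Irak2 differed by -0.02 and Irf5, a transcription factor of the same route, by 0.11. The cytosolic sensors had 9 tested genes of 11 and 0 that passed in any comparison. Sting1, the adaptor for cytosolic DNA, differed by 0.87 in treated against untreated BCR-negative cells and by 1.01 in BCR-independent against BCR-positive cells, with limma adjusted p of 0.23 and 0.40.

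Genes that respond to Toll-like receptor or interferon signals had 8 tested members of 18. In treated against untreated BCR-negative cells the median was -0.013 beside 0.026 over all genes. Of the 8, 3 had an unadjusted p under 0.05, beside 16.6% of all genes. After adjustment 1 passed downward and 0 upward, while 1.91% of all genes passed in 1 or the other direction. The 1 gene was Nfkbia, which encodes the NF-kB inhibitor that NF-kB itself induces, at 5.74, 6.07 and 5.43 in treated against 6.29, 7.19 and 6.82 in untreated BCR-negative cells. It read 6.26, 6.60 and 5.99 in BCR-independent and 6.27, 6.95 and 6.93 in BCR-positive cells. It fell by 1.02 (SE 0.19, limma adjusted p = 0.0372) in 3 of 3 tumours, and the call was lost without any 1 of the tumours, without the tumour block, with only the 2 groups compared and with a term for the title mark, where the difference was -0.57. Bst2, an interferon-induced gene that is also a plasmacytoid dendritic cell marker in mice, differed by 0.80 (limma adjusted p = 0.111). Of other interferon-induced genes in the list, Oas1a differed by 0.31 (limma adjusted p = 0.259) and Usp18 by 0.03. Nfkbia, Bst2 and Oas1a were the 3 genes with an unadjusted p under 0.05. In the other 5 comparisons 0 of the 8 passed.

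**Figure D5:**
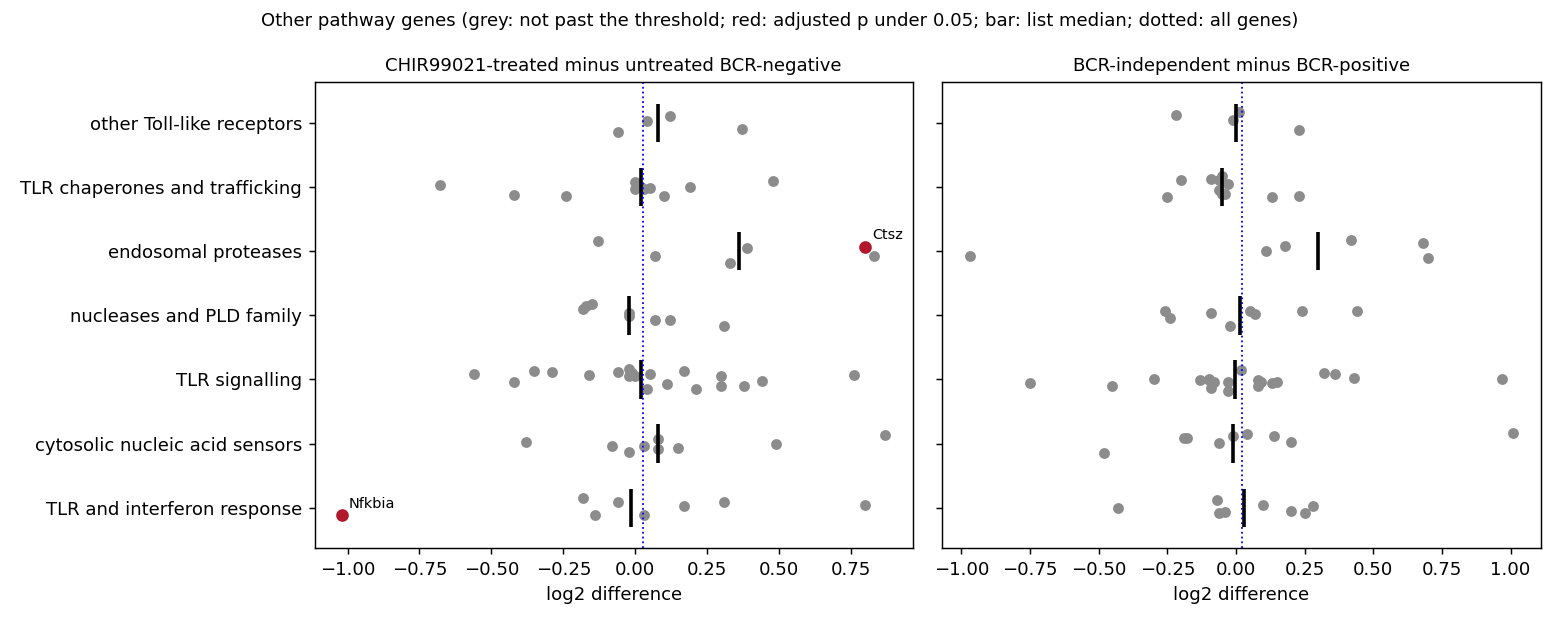
Log2 difference (horizontal axes) of each tested gene in the 7 lists, for CHIR99021-treated against untreated BCR-negative cells (left) and BCR-independent against BCR-positive cells (right), with red points for genes past the adjusted threshold, black bars for list medians and a dotted line for the median of all genes. Only Ctsz (0.80) and Nfkbia (-1.02) are red at the left and 0 genes at the right, and the bar of the endosomal proteases lies right of the dotted line in both panels (0.36 and 0.30).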

How the data were processed

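RNA of 12 sorted lymphoma samples was hybridised to whole-transcript mouse arrays. The deposited values are log2 signals per probe set. The submitters' processing notes name RMA and Affymetrix Power Tools, with versions not given in the sources used here. RMA compresses differences between dim probe sets. They were used as deposited, and depth does not apply. Of 35556 probe sets, 21218 had 1 gene symbol, 1881 several and 12457 none in the platform annotation. 21185 symbols were updated by gene ID through RefSeq names. Probe sets were kept where 3 or more arrays read above their own 40th percentile, and a gene was read from its brightest probe set. Group and tumour were the terms of a limma 3.58.1 fit in R 4.3.3 (lmFit, eBayes, 6 residual and 3.41 prior degrees of freedom), with Benjamini-Hochberg adjustment over 12961 genes, 6 comparisons and a threshold of 0.05. The fit was tested on simulated data. Tumours pair the arrays: residuals from group means correlated at 0.284 to 0.792 within a tumour and at -0.716 to 0.165 between tumours. Subtracting group means over 3 tumours itself pushes correlations between tumours below 0, so nothing is read from that lower range. Each tumour gave its samples once per group, and the tumour term removes differences in level between tumours. A p-value therefore sets a mean difference against how much differences between groups vary among these 3 tumours. That spread is pooled over the 4 groups and moderated with the spread of all genes. Alternatives changed the block, filter, moderation, weights, normalization, samples, probe sets, title mark or tumours. Genes, lists, markers and motifs were chosen with earlier results of these data known. Named genes are the 10 members, list genes that passed in any comparison, the 5 genes most like Tlr9 and the 5 most like Pld4. Other list genes and markers named as examples were chosen after their values were seen.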

Additional observations from a re-analysis of the deposited data

How the results depend on the processing

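Under 13 alternatives, 0 of the 10 genes passed the threshold in the 5 comparisons other than treated against untreated BCR-negative cells, as in the fit reported. In that comparison, on which the genes were chosen, the counts are a record and nothing is read from them: 3 as reported, 1 with no tumour block, 0 with the title mark as a term, and 0 to 1 with a tumour left out (0 without 2567, 0 without 2646 and 1 without 2676). With the title mark as a term Tlr9, Pld4 and Myd88 differed by 1.08, 3.25 and 1.07. With that term, the joint level of treated and BCR-independent cells against untreated BCR-negative and BCR-positive cells rests on tumour 2567. Differences between treated and BCR-independent cells, and between untreated BCR-negative and BCR-positive cells, still use all 3 tumours. The values with the term are therefore not those of tumour 2567, which were 1.36, 3.55 and 0.84 for Tlr9, Pld4 and Myd88. In treated against untreated BCR-negative cells, Cd180 differed by 0.43 with the term and by 1.83 in tumour 2567. Over the alternatives the number of all genes called there ran from 1 (without tumour 2646) to 1635 (array weights), against 248 reported. It ran from 0 to 182 for treated against BCR-positive (104), 0 to 39 for treated against BCR-independent (21), 0 to 2 for BCR-negative against BCR-positive (1), 0 to 3 for BCR-independent against BCR-negative (1) and 1 to 14 for BCR-independent against BCR-positive cells (11). Signs turned for differences of members that passed no threshold in the fit reported, some of them sizeable (Ly96 at 0.70 in BCR-independent against BCR-positive cells and Cd180 at 0.61 in treated against BCR-independent cells). In treated against untreated cells Ly86 was -0.01 with array weights and -0.01 after quantile normalization, Unc93b1 0.38 and Pld3 0.05 with the mark. With the mark Cd180 was -0.17 in BCR-independent against BCR-negative and -0.42 against BCR-positive cells. With a tumour left out, Unc93b1 ran from -0.35 to 0.07 and Pld3 from -0.24 to 0.04 in treated against untreated cells, and Pld3 from -0.12 to 0.23 in treated against BCR-positive cells. In treated against BCR-independent cells Cd180 ran from -0.42 to 1.28, Ly86 from 0.00 to 0.50 and Pld3 from -0.38 to 0.10. In BCR-negative against BCR-positive cells Cd180 ran from -0.56 to 0.12 and Ly96 from -0.33 to 0.92. In BCR-independent against BCR-negative cells Unc93b1 ran from -0.18 to 0.28, Ly86 from -0.43 to 0.10 and Pld3 from -0.06 to 0.15, and against BCR-positive cells Ly96 from -0.08 to 1.20 and Cd180 from -0.38 to 1.14. The trafficking list had 1 call, against 0 reported, in treated against untreated cells under 5 alternatives (stricter filter, trend and robust eBayes, array weights, cyclic loess and quantile normalization). With array weights the signalling list had 3, the response list 2 and the nuclease and cytosolic sensor lists 1 each. In treated against BCR-positive cells the response list had 1 call, against 0 reported, under the same 5. The median of the Toll-like receptor and interferon response list in treated against untreated cells was 0.02 with no filter and 0.03 with array weights. The cause of these changes was not tested. Tlr7 and Tlr4 lie at the dim end, where the array limits what can be seen.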
